A study of Mus musculus with 29 samples.

Results

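The genes described here are 10 mouse genes that the intestinal epithelium is known to use and that are associated with CDX2: Cdx1, Cdh17, Muc2, Sis, Lct, Vil1, Krt20, Isx, Lgr5 and Fabp2. They were chosen by name, and each was described by the ChIP-seq peaks that lie in its gene body or within 50 kb on either side of it, 10 of 21938 protein-coding genes in all. Every factor was expressed in NIH-3T3 cells, an established mouse fibroblast line, from a doxycycline-inducible lentiviral transgene with a C-terminal HA tag. Cells of every group carried the rtTA3G transactivator, received 500 ng/ml doxycycline overnight and were fixed with 1% formaldehyde, and chromatin was pulled down with an antibody against HA. The 28 peak lists covered 24 constructs, namely 21 wild-type factors, the FOXA1 mutants RR and SW, and OCT4-HA in cells that also carried SOX2-YPET. Duplicate lists were at hand for 4 constructs (SOX2-HA, OCT4-HA, BHLHB8-HA and FOXA1-HA) and a single list for the other 20, CDX2-HA included. The lists held 52 to 61991 peaks, 304922 together, with 25278 for CDX2-HA. They give positions only, so the height of a peak and the sequencing depth are unknown. With 1 CDX2-HA list there is no replicate check and no test of a difference between constructs. No RNA was measured, so neither the expression of these genes nor the fibroblast identity of the cells could be examined through marker transcripts.

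CDX2 is a homeodomain transcription factor that specifies and maintains intestinal epithelium. Its DNA-binding domain recognises AT-rich sites with an ATAAA core, and its known target genes in the gut encode digestive enzymes, adhesion molecules, mucins and cytoskeletal proteins. The 10 genes cover these roles. Cdx1 and Isx are homeodomain factors of the gut, Sis and Lct encode the brush border enzymes sucrase-isomaltase and lactase, and Fabp2 encodes the intestinal fatty acid binding protein. Vil1 encodes villin, which bundles actin in microvilli, Krt20 encodes an intermediate filament keratin, Cdh17 encodes LI-cadherin, Muc2 encodes the gel-forming mucin of goblet cells, and Lgr5 encodes an R-spondin receptor that marks crypt stem cells. A fibroblast is not known to use this programme. The lists therefore show where a gut factor, and 23 other constructs for comparison, were crosslinked around gut genes in a cell of another lineage.

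CDX2-HA had at least 1 peak around 9 of the 10 genes (90%, 95% exact interval 55.5 to 99.7, counting error only). Muc2 was the gene without one. The same rule gave a CDX2-HA peak to 56.4% of all protein-coding genes, 12366 of 21938. The interval for the 10 genes contains this share. Vil1, Krt20 and Lgr5 had 3 CDX2-HA peaks each, Lct and Fabp2 had 2 each, and Cdx1, Cdh17, Sis and Isx had 1 each, 17 peaks in all. Thus 5 of the 10 genes had 2 or more peaks, where 34.8% of all protein-coding genes did, and 3 had 3 or more, where 21.7% did. The windows spanned 104 to 237 kb with a median of 135 kb, against a median of 117 kb for all protein-coding genes. Per length, the windows held 11.6 CDX2-HA peaks per Mb over 1.46 Mb, and the genome held 9.27 per Mb, a ratio of 1.25. The count of genes is set against the windows of all protein-coding genes and the density against the whole genome. These backgrounds differ, so the 2 departures cannot be ranked. The count of genes depended on the flank. With 10 kb on either side the share of the 10 genes was not above the background (3 of 10 against 7280 of 21938).

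**Figure D1:**
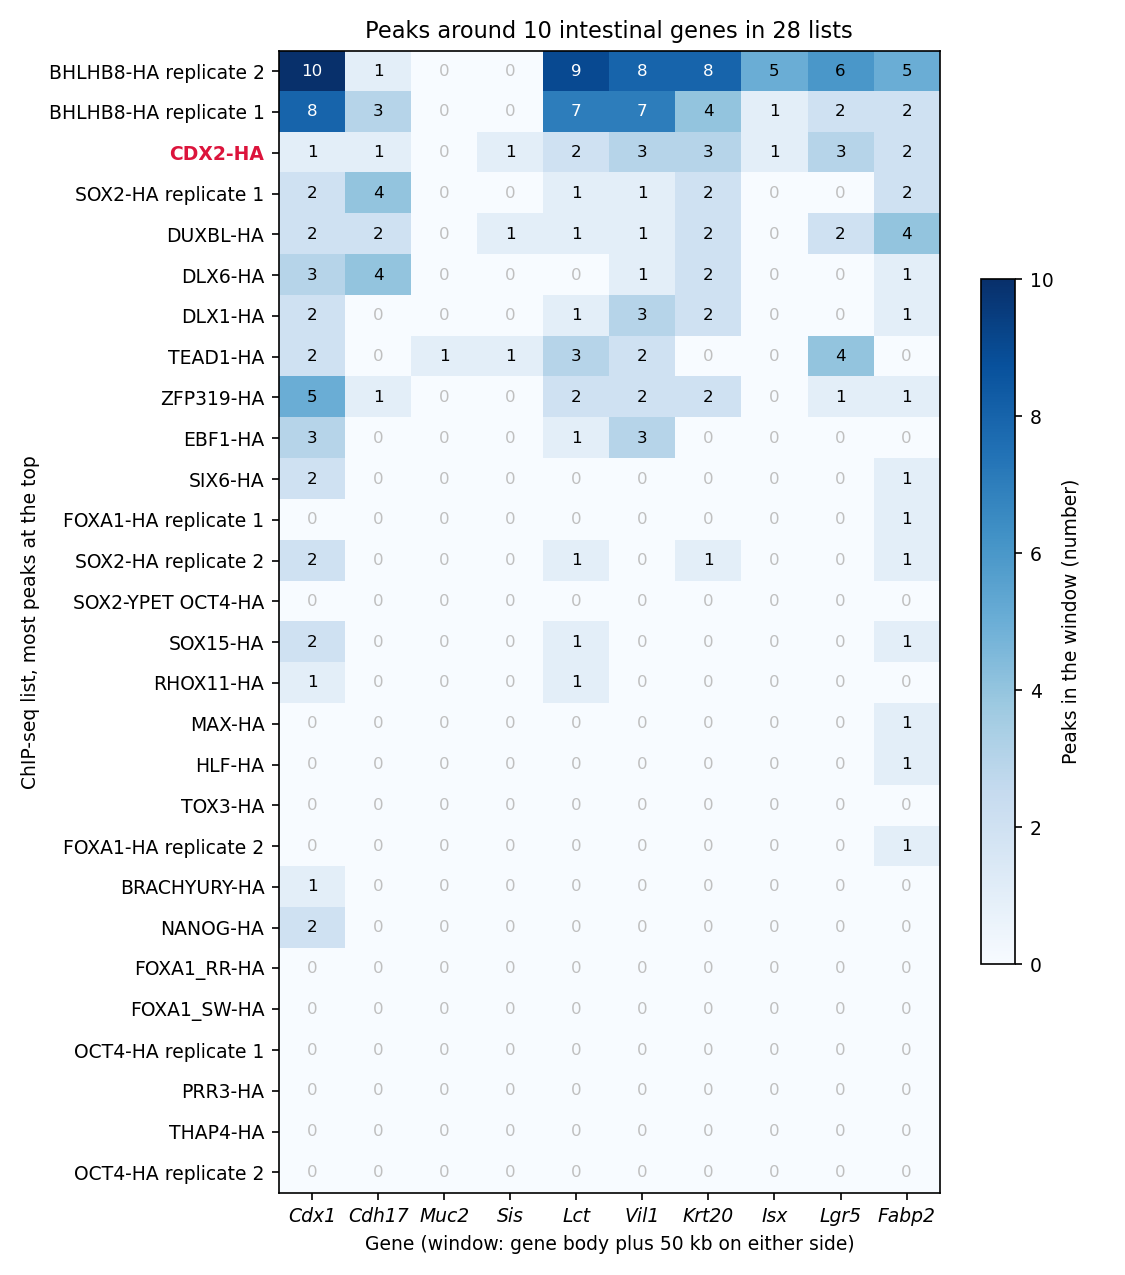
Number of peaks in the window of each gene (columns, gene body plus 50 kb on either side) in each of the 28 lists (rows, the list with the most peaks at the top). CDX2-HA, in red, has a peak in 9 columns, Muc2 is at 0 in every list but TEAD1-HA, and Sis has 3 peaks in all.

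At Sis, the CDX2-HA peak lay on the promoter. It spanned chr3:72967829-72968025 (GRCm38), 197 bp with a midpoint 64 bp upstream of the annotated start, and overlapped no peak of another construct. It was the only CDX2-HA peak within 1 kb of an annotated start of any of the 10 genes, and 4.68% of all protein-coding genes had such a peak. Sis was also the only one of the 10 genes whose body a CDX2-HA peak overlapped, where 23.1% of all protein-coding genes had one. The midpoint of the CDX2-HA peak nearest the start of 6 of the genes is shown here, with 50 bp on either side, because this lets the promoter peak be read beside peaks far from a promoter. The stretches are given 5′ to 3′ on the strand of the gene, from GRCm38, with each match to the CDX2 consensus GNNATAAA on either strand in capitals. None of them overlaps an annotated UTR.
Sis, chr3:72967877-72967977, minus strand: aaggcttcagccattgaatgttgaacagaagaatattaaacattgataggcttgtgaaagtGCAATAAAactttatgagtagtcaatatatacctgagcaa
Krt20, chr11:99441759-99441859, minus strand: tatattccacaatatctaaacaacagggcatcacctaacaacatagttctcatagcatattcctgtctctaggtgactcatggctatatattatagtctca
Fabp2, chr3:122916067-122916167, plus strand: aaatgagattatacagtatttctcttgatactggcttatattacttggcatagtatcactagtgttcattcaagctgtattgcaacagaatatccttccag
Lct, chr1:128355766-128355866, minus strand: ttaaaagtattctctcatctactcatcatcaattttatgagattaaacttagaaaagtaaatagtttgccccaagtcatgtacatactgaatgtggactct
Vil1, chr1:74448226-74448326, plus strand: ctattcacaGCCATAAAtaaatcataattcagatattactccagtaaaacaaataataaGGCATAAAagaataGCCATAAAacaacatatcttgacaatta
Isx, chr8:74916310-74916410, plus strand: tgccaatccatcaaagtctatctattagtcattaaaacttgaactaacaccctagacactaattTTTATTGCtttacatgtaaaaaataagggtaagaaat

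The Sis stretch, which runs from 114 to 14 bp upstream of the start, held 1 match, GCAATAAA, centred 14.5 bp from the midpoint of the peak. The Vil1 stretch held 3 matches, GCCATAAA at both ends of the series and GGCATAAA between them. The Isx stretch held 1 match on the other strand, which reads TTTATTGC as printed. The Krt20, Fabp2 and Lct stretches held none. Among central stretches of the same length from all CDX2-HA peaks, 36.3% held at least 1 match, so these 6 stretches show both kinds of peak. Of RefSeq promoters, taken from 250 bp before to 50 bp after the start (300 bp, GRCm38), 12.6% held a match (4147 of 32851). RefSeq promoters of 7 of the 10 genes were at hand, and 2 of them, those of Sis and Fabp2, held a match. Only the first of these carried a CDX2-HA peak.

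Over the central 200 bp, 55% of the CDX2-HA peaks held the consensus (13908 of 25278, 95% exact interval 54.4 to 55.6), while the other 27 lists held it in 3.77% to 13.7% of their peaks. Around the intestinal genes the CDX2-HA share was 52.9%, 9 of 17 peaks (27.8 to 77), close to that of the whole list. These 9 peaks were all 3 of Vil1, 2 of the 3 of Krt20, and 1 each of Sis, Isx, Lgr5 and Fabp2. A match of letters is a description of the sequence and not a measured binding site. The converse was counted too, with no share over the genome beside it, so it cannot be called high or low. The 10 windows held 1028 matches, 0.703 per kb, and 18 of them (1.75%) lay inside a CDX2-HA peak. Vil1 had the highest share, with 7 of 76 matches (9.21%) inside its peaks. The Sis window had the most matches, 216, or 1.2 per kb at a G+C content of 35.4%, and the promoter peak covered 1 of them. Lgr5 had 183 matches with 1 covered, Cdh17 had 120 with 1 covered, and Cdx1 had 31 with none covered.

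**Figure D2:**
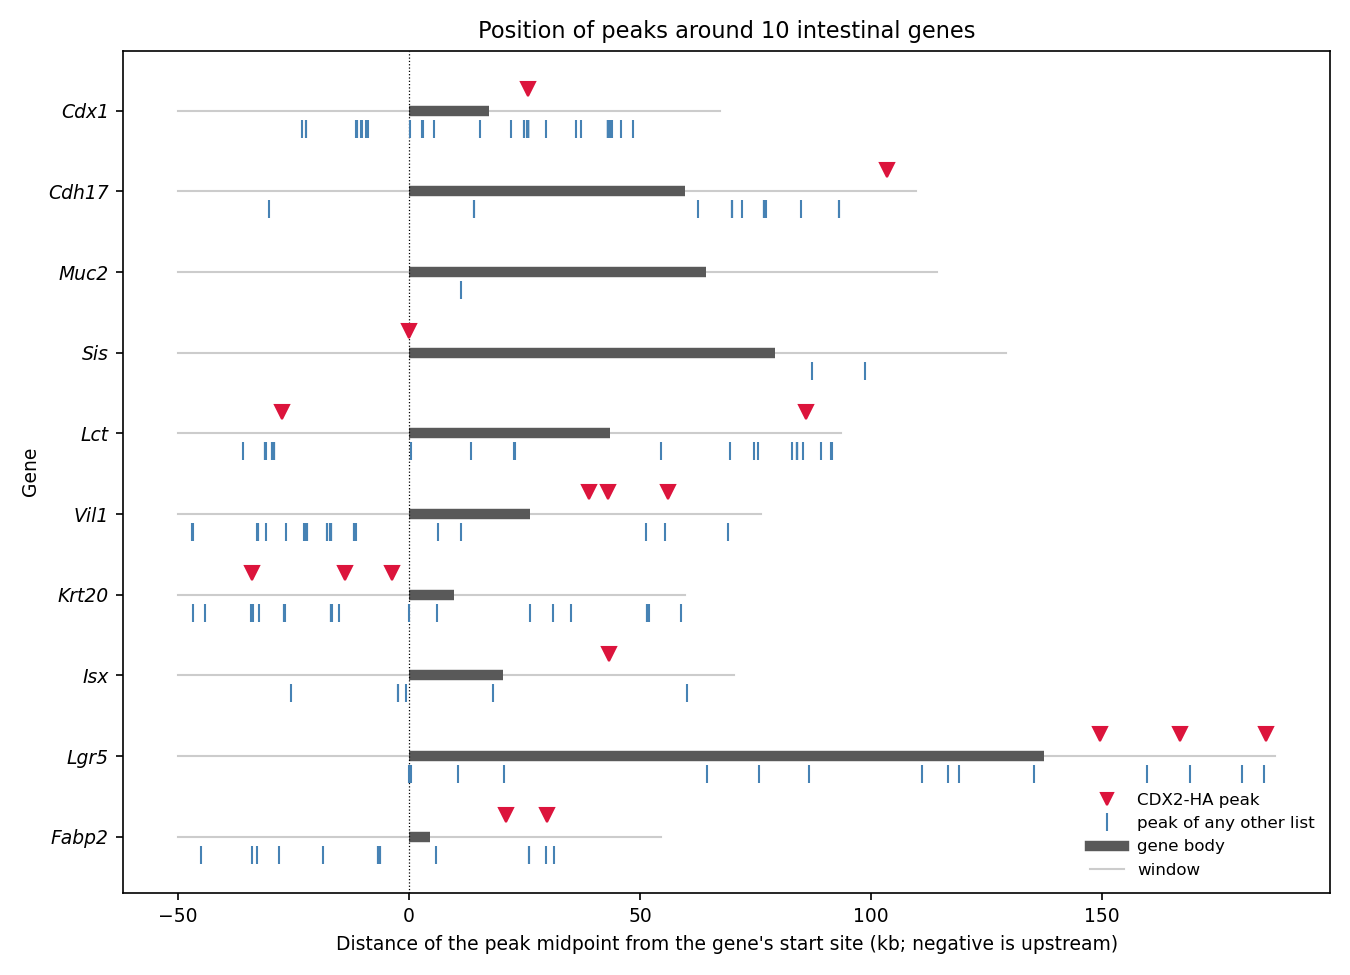
Midpoints of peaks by distance from the start site of each gene in kb, with the direction of transcription to the right, for CDX2-HA (red triangles) and for all other lists (blue ticks); thick bars are gene bodies and thin lines the windows. Of the 17 CDX2-HA peaks, 5 lie upstream of the start, 12 beyond the end of the gene and none in an intron of the gene, while other lists have peaks inside 8 of the bodies shown.

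Most CDX2-HA peaks around these genes lay away from the gene itself. Of the 17, 5 had their midpoint upstream of the start and 12 beyond the end of the gene. None lay in an intron of the gene whose window it was in, 9 lay in introns of neighbouring genes and 8 lay between genes. The nearest protein-coding start was that of the intestinal gene for 5 peaks and that of another gene for 12. A peak in a window is therefore assigned to the gene by distance alone. These positions were not counted over the windows of all protein-coding genes, so they cannot be read as particular to the 10 genes. The peaks were 174 to 526 bp wide, with a median of 235 bp against 269 bp for all CDX2-HA peaks. Only Sis and Krt20 had a CDX2-HA peak within 5 kb of an annotated start, 2 of 10 genes where 16.2% of all protein-coding genes had one.

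Krt20 had the closest group of peaks after Sis, at 3.66, 13.89 and 34.04 kb upstream of its start on chromosome 11. The nearer 2 were seen with CDX2-HA alone, and the third, chr11:99471992-99472389, overlapped peaks of BHLHB8-HA and DUXBL-HA. All 3 lay between genes of a cluster of keratin genes, and the third was nearest to the start of Krt23. BHLHB8-HA had 4 peaks in replicate 1 and 8 in replicate 2 around Krt20, including one 65 bp inside the gene in replicate 2. DUXBL-HA, DLX1-HA, DLX6-HA, ZFP319-HA and SOX2-HA replicate 1 had 2 peaks each, and SOX2-HA replicate 2 had 1.

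Vil1 was flanked by 3 CDX2-HA peaks at 38.90, 43.08 and 56.14 kb past its start on chromosome 1, all within introns of Usp37 and all CDX2-HA alone. They were 290, 195 and 174 bp wide and held 3, 1 and 3 consensus matches. The other constructs stood mainly on the opposite side of the gene. The site with the most constructs, 22.43 kb upstream, had BHLHB8-HA, DLX1-HA, DLX6-HA, EBF1-HA and SOX2-HA, and no CDX2-HA. Over the window, 9 constructs had a peak, with 7 and 8 peaks in the BHLHB8-HA duplicates, 3 each for EBF1-HA and DLX1-HA, and 2 each for TEAD1-HA and ZFP319-HA.

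The remaining enterocyte genes had CDX2-HA peaks farther out. For Lct, one lay 27.50 kb upstream in an intron of Mcm6, and one 85.85 kb past the start, 1497 bp from the start of Ubxn4. Both were CDX2-HA alone, although 10 constructs had a peak somewhere in the Lct window. For Fabp2, one lay 21.05 kb past the start and one 29.83 kb past it, the latter 698 bp from the start of 1810037I17Rik. Both were CDX2-HA alone. The site 6.55 kb upstream of Fabp2, chr3:122888166-122888878, held peaks of 10 constructs (BHLHB8-HA, DLX1-HA, DLX6-HA, DUXBL-HA, FOXA1-HA, HLF-HA, MAX-HA, SIX6-HA, SOX15-HA and SOX2-HA) but none of CDX2-HA. It was the only peak around any of the 10 genes for FOXA1-HA, HLF-HA and MAX-HA. The gene body of Fabp2, 4.43 kb long, had no peak in any list.

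Cdh17 had a CDX2-HA peak of 363 bp 103.40 kb past its start, between genes and CDX2-HA alone. Other constructs had 15 peaks there, 4 each for DLX6-HA and SOX2-HA replicate 1. One of the DLX6-HA peaks lay in an intron of Cdh17. Lgr5, the longest gene of the group (137 kb), had its 3 CDX2-HA peaks 149.51, 166.85 and 185.55 kb past its start, all beyond its end and nearest to the start of Zfc3h1. All 18 merged sites of the Lgr5 window held 1 construct each, so no peak of CDX2-HA, BHLHB8-HA, TEAD1-HA, DUXBL-HA or ZFP319-HA touched one of another construct there. TEAD1-HA had a peak of 530 bp on the Lgr5 start, with its midpoint 18 bp inside the gene. BHLHB8-HA had 2 peaks in replicate 1 and 6 in replicate 2 around Lgr5, and none of the former overlapped the latter.

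Of the homeodomain genes, Isx had 1 CDX2-HA peak, 43.19 kb past its start, between genes and CDX2-HA alone. The only other construct with a peak around Isx was BHLHB8-HA, with 1 peak in replicate 1 and 5 in replicate 2. Cdx1, the paralogue of Cdx2, had peaks of 14 constructs, the most of the 10 genes. Its single CDX2-HA peak, 25.73 kb past its start in an intron of Slc6a7, lay in a site where 9 other constructs also had a peak. A further site 43.41 kb past the start held 10 constructs, with BRACHYURY-HA, NANOG-HA and RHOX11-HA among them and without CDX2-HA. The Cdx1 window also contains Pdgfrb, a receptor gene used by fibroblasts, and 6 merged sites lay at or upstream of 8.92 kb before the Cdx1 start, 5 of them in introns of Pdgfrb. The Cdx1 start itself carried a TEAD1-HA peak, with its midpoint 269 bp inside the gene.

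None of the 10 genes was without a peak in these fibroblasts, where 7.26% of all protein-coding genes had none in any list. Muc2 came nearest to having none. A single TEAD1-HA peak of 279 bp, chr7:141701428-141701706, lay in a Muc2 intron 11.23 kb past the start, within 1 kb of the start of an annotated shorter transcript. The other 27 lists had no peak around Muc2, and 5.07% of all protein-coding genes had peaks of a single construct. In GRCm38, 40.2 kb of the Muc2 window (24.5%) is undetermined sequence, in which no peak could be called, and the other 9 windows had no such bases. The known part of the Muc2 window held 0.322 consensus matches per kb at a G+C content of 49.9%. Sis and Isx followed, with peaks of 3 and 2 constructs. At Sis the other peaks were 1 of TEAD1-HA and 1 of DUXBL-HA, 87.30 and 98.71 kb past the start and beyond the end of the gene. Both BHLHB8-HA lists, the longest of the series, had no peak around Sis or Muc2 and had one around each of the other 8 genes.

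Set beside the other lists, CDX2-HA had a peak around more of the 10 genes than any other. BHLHB8-HA had one around 8 in both replicates, where 77.2% and 84.4% of all protein-coding genes did. DUXBL-HA had one around 8 (background 64.2%), ZFP319-HA around 7 (59.4%), TEAD1-HA around 6 (68.8%), and SOX2-HA around 6 in replicate 1 (57.3%) and 4 in replicate 2 (25.6%). DLX1-HA (60.5%) and DLX6-HA (53.1%) had one around 5 each. EBF1-HA had one around 3 (38.8%), SOX15-HA around 3 (22%), RHOX11-HA around 2 (34.3%) and SIX6-HA around 2 (27.8%). FOXA1-HA had one around 1 gene in both replicates (27.5% and 6.66%), as had HLF-HA (15.6%), MAX-HA (23%), NANOG-HA (1.82%) and BRACHYURY-HA (3.92%). The remaining 8 lists, of up to 5146 peaks, had none. They were SOX2-YPET OCT4-HA (15.9%), TOX3-HA (10.1%), the FOXA1 mutants RR (0.921%) and SW (0.884%), OCT4-HA (0.725% and 0.351%), PRR3-HA (0.451%) and THAP4-HA (0.447%). With 10 genes, 1 gene moves a share by 10%, so the lists with 8 and 9 genes differed by the smallest step there is.

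**Figure D3:**
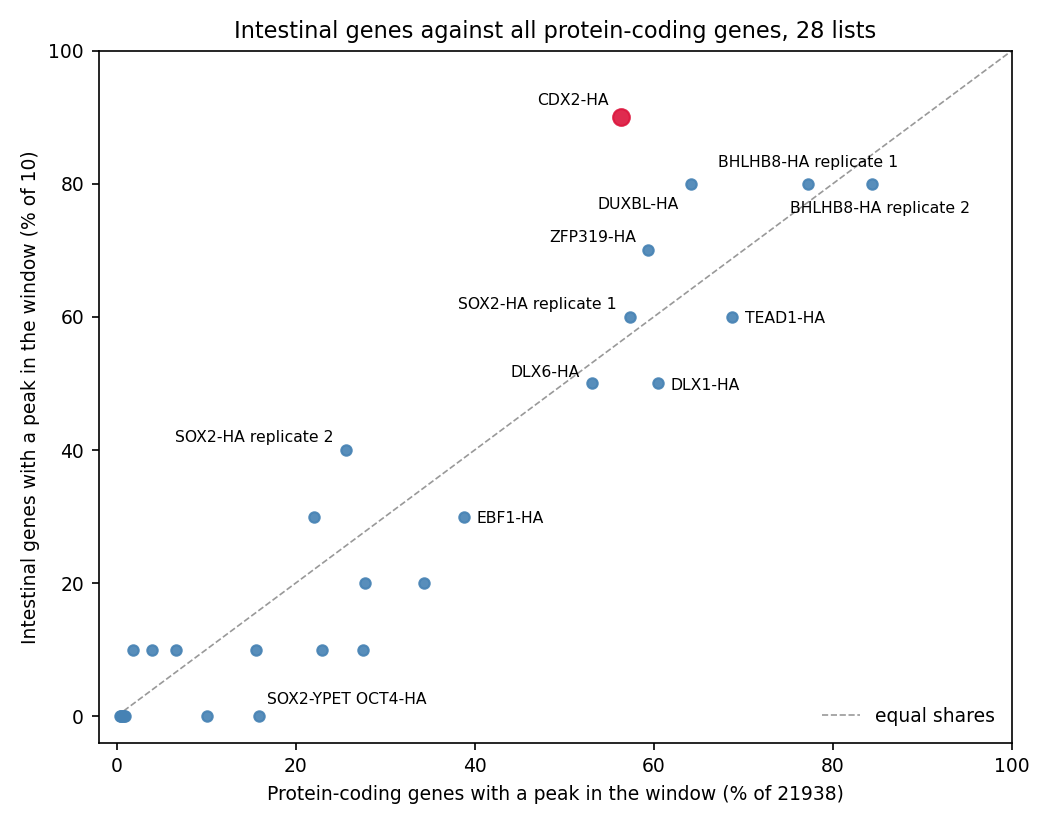
Percent of the 10 intestinal genes with a peak (vertical) against the percent of all 21938 protein-coding genes with one (horizontal), 1 point per list, with the dashed line marking equal shares. CDX2-HA, in red, is at 90% against 56.4%, and DUXBL-HA (80% against 64.2%), ZFP319-HA (70% against 59.4%) and SOX2-HA replicate 2 (40% against 25.6%) are among the others above the line.

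By number of peaks the order was different. CDX2-HA had 17 in the 10 windows, after 52 and 34 for the BHLHB8-HA duplicates and before 15 for DUXBL-HA, 14 for ZFP319-HA, 13 for TEAD1-HA and 12 for SOX2-HA replicate 1. Relative to its own density over the genome, CDX2-HA reached a ratio of 1.25, below ZFP319-HA (1.78), EBF1-HA (1.7), SOX2-HA replicate 2 (1.64), TEAD1-HA (1.62), SOX15-HA (1.49) and both BHLHB8-HA lists (1.35 and 1.56). NANOG-HA (9.41), BRACHYURY-HA (2.59) and FOXA1-HA replicate 2 (1.7) were higher too, on only 2, 1 and 1 peaks in the windows. CDX2-HA was above DUXBL-HA (1.15), DLX6-HA (0.977), SOX2-HA replicate 1 (0.893) and DLX1-HA (0.833). Per 1000 peaks of its list, CDX2-HA had 0.673 in these windows, which ranked 11 of 28. Its peaks were spread over the genes with at most 3 for any of them, where BHLHB8-HA replicate 2 had 10 around Cdx1 and none around Muc2 or Sis.

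Peaks on the start sites and in the gene bodies came mainly from other constructs. TEAD1-HA had a peak within 1 kb of an annotated start of Cdx1, Muc2 and Lgr5, 3 of 10 where 33.2% of all protein-coding genes had one. BHLHB8-HA had start-site peaks at Lct, Vil1, Krt20, Isx and Lgr5 in replicate 2 (47.2%) and at none of the 10 in replicate 1 (35.9%). Peaks overlapped the gene body for 6 genes in BHLHB8-HA replicate 2 (58.9%), 3 in replicate 1 (45.4%), 3 with TEAD1-HA (37.7%), 2 with ZFP319-HA (19.8%), and 1 each with DUXBL-HA (22.7%), DLX6-HA (19.6%) and CDX2-HA. The bodies of 8 genes had a peak of a list other than CDX2-HA, where 72.4% of all protein-coding genes did, and the body of Sis had the CDX2-HA peak alone.

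Most CDX2-HA peaks around these genes were seen with CDX2-HA alone. Of the 17, 2 overlapped a peak of another construct (11.8%, 95% exact interval 1.46 to 36.4), one at Cdx1 and one at Krt20, against 22.3% of all CDX2-HA peaks (5626 of 25278). The interval contains the share of the whole list. Merging touching peaks of all constructs gave 119 sites around the 10 genes, and 100 of them (84%) held a single construct, against 76.3% of 168506 sites over the genome. These single-construct sites were 47 of BHLHB8-HA, 15 of CDX2-HA, 14 of ZFP319-HA, 12 of DUXBL-HA, 9 of TEAD1-HA, 2 of SOX2-HA and 1 of DLX6-HA. Of the sites, 3 held 10 constructs, 2 around Cdx1 and 1 around Fabp2, and no site held more. The share of such sites over the genome is not given, so this number cannot be called high or low.

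The duplicates give the one measure of how far such counts repeat. The BHLHB8-HA lists gave the same answer, peak or no peak, for 10 of 10 genes, but 22 of the 34 peaks of replicate 1 overlapped one of the 52 of replicate 2. The FOXA1-HA and OCT4-HA duplicates also gave the same answer for 10 of 10 genes, with 1 gene and 0 genes with a peak. The SOX2-HA duplicates did so for 8 of 10, and 5 of the 12 peaks of replicate 1 overlapped one of the 5 of replicate 2. SOX2-HA replicate 1 had 25049 peaks and replicate 2 had 5692. The overlap of duplicates was not counted over the whole lists, so these numbers cannot be read as particular to the 10 genes. How many of the 9 genes would keep a CDX2-HA peak in a further library was not tested.

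In a wider list of 72 other intestinal genes, CDX2-HA had a peak around 41 (56.9%, 95% exact interval 44.7 to 68.6), next to 56.4% of all protein-coding genes and 90% of the 10 genes above. Some windows of this list overlap, so the same peak can count for neighbouring genes, as for Apoa1 with Apoc3 and for Krt8 with Krt18. The interval treats the genes as independent and does not allow for this. By role these were 11 of 15 adhesion or cytoskeleton genes, 10 of 14 transcription factors, 6 of 10 crypt stem cell genes, 10 of 21 enterocyte genes and 4 of 12 goblet or Paneth cell genes. Retnlb, which encodes a resistin-like protein of goblet cells, and Olfm4, a crypt stem cell marker, had no peak in any list. Cubn, the endocytic receptor cubilin, had the most CDX2-HA peaks, 21 in a window of 315 kb, and Clca1 had 7, Itln1 had 6, and Krt8 and Znrf3 had 5 each. A CDX2-HA peak lay within 5 kb of an annotated start of 10 of the 72, where 16.2% of all protein-coding genes had one, among them Guca2a, Itln1, Znrf3, Cdx2, Gata4, Klf4, Cldn7, Krt8 and Krt19. Only Cdx2 and Krt19 had one within 1 kb, where 4.68% of all protein-coding genes did. The first lay in a coding exon 496 bp past the Cdx2 start, and the second in an intron 917 bp past the Krt19 start. The Cdx2 peak overlapped peaks of 1 other construct and the Krt19 peak those of 3. The transgene carries the Cdx2 coding sequence, and the chromosomal copy and the transgene cannot be told apart at the Cdx2 exon. Among 16 genes that fibroblasts use, 12 had a CDX2-HA peak (75%, 47.6 to 92.7). The only CDX2-HA peak counted for Pdgfrb is the same peak that was counted for Cdx1 above, and the windows of Dcn and Lum overlap and share a CDX2-HA peak. Of the 16, 2 had one within 1 kb of an annotated start and 5 within 5 kb, where 4.68% and 16.2% of all protein-coding genes did. Col3a1, which encodes a fibrillar collagen, had a CDX2-HA peak 35 bp upstream of its start, which 7 other constructs shared.

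As a description over the 24 constructs, with no test, the genes whose peak numbers were most like those of the members with 3 CDX2-HA peaks included Sinhcaf (Pearson r 0.984) and Tbc1d16 (0.983) for Vil1, Prmt3 (0.996), Mars2 (0.992) and Myl10 (0.991) for Krt20, and Pkdcc (0.99), Tbce (0.99) and Nkx1-1 (0.989) for Lgr5. These genes were taken from outside the 10 windows, so no member could be among them. None is among the 72 other intestinal genes either, but with 72 such genes among 21938 this says nothing about the members. BHLHB8-HA had more merged peaks around these members than any other construct, 10 around Vil1, 10 around Krt20 and 8 around Lgr5, and its part in the likeness was not tested.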

How the data were processed

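The authors aligned paired-end reads to mm10 with STAR 2.5.3a, removed duplicates with Picard, ran the MACS2 2.1.1.20160309 peak caller on each sample by itself, and left out peaks found in input chromatin or in blacklisted regions. deepTools 2.4.2 is also named in the submitters' processing notes. The deposited values are peak positions (chromosome, start and end), with no score or read number. The input sample was not used here.

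Peaks were counted with Python 3.11.15, NumPy 2.4.6, SciPy 1.17.1 and pysam 0.24.0 if they overlapped the window by at least 1 bp. Gene models were GENCODE vM21 on GRCm38, the mm10 assembly, and positions count from 1. Peaks of duplicates were merged to count constructs. Distances run from the gene's outermost start to the peak midpoint. Intervals are 95% exact (Clopper-Pearson) intervals and cover counting error only. The counting was tested on simulated data. No hypothesis test was run.

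The genes and lists were chosen with earlier results of these data known. Named genes were all 10, those of the wider list with a CDX2-HA peak within 5 kb of a start, the 5 with most CDX2-HA peaks (ties kept), and the 3 most alike; some of these are not reported here. Krt23, Col3a1, Pdgfrb and the other neighbours were named after their values were seen. The windows of 10 and 100 kb, the gene body alone, peaks of at least 300 bp and other consensus forms were tried as alternatives.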

Additional observations from a re-analysis of the deposited data

How the results depend on the processing

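No paired analysis was possible because no result comes from a test and CDX2-HA has 1 list. Of 58 alternative values for 7 results, 38 stayed within 1.5 times the reported count or, for the consensus share, within its 95% interval, and 20 did not. The 10 kb window left 3 genes (Cdx1, Sis and Krt20) with 3 CDX2-HA peaks, 1 of them shared with another construct, 23 of the 72 other intestinal genes and 7280 protein-coding genes. The 100 kb window gave 29 peaks, 5 of them shared, and a peak to all 10 genes, 59 of the 72 others and 15601 protein-coding genes. Gene bodies alone left 1 gene with 1 peak, 0 shared, 1 gene (Fabp2) without a peak in any list, 14 other intestinal genes and 5070 protein-coding genes. Peaks of at least 300 bp left 6 peaks at 6 genes, 1 shared, 1 gene (Muc2) without any peak, 27 other intestinal genes and 7728 protein-coding genes; the Sis promoter peak, at 197 bp, was lost. With the 10 kb window and with gene bodies alone, the share of the 10 genes was not above that of all protein-coding genes. The pairs were 3 of 10 against 7280 of 21938, and 1 of 10 against 5070 of 21938. With the 100 kb window and with peaks of at least 300 bp it stayed above. Without sites of 10 or more constructs, 1 of 16 peaks was shared, and Cdx1 lost its CDX2-HA peak. GCAATAAA alone was in 17.6% of the peaks, and GNNATAAA in 33.3% (2 of 6) of those of at least 300 bp. Leaving out each duplicate list in turn gave 0 genes without a peak and 2 shared peaks each time. These values are among the 38, but they could not have moved. Each gene has a peak of CDX2-HA or TEAD1-HA, and both shared peaks also overlap DUXBL-HA, and none of these constructs has duplicates. The 38 therefore overstate how far the results held. Depth, which the lists do not give, limits any reading of an absent peak.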
